A study of Schizosaccharomyces pombe with 4 samples.

Results

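The genes examined here lie at the 4 ends of chromosomes I and II of the fission yeast Schizosaccharomyces pombe. A gene was a member when its locus in the 24°C table lay wholly within 100 kb of the lowest start or the highest end listed for that chromosome. The rule took in 141 of the 5143 genes of the table. A set of 8 of these (sul2, put4, cat1, pfl6, SPAC977.15, dak2, SPAC977.17 and pfl9) was left out, and the remaining 133 genes are described. They comprise 33 genes at the left and 29 at the right end of chromosome I, with 36 genes at the left end of chromosome II and 35 at the right. Wild-type S. pombe cells were compared with the strain fas S.j., where the coding sequences of fas1 and fas2, the subunits of the cytosolic fatty acid synthase, are replaced by those of Schizosaccharomyces japonicus. The replaced genes carry the resistance markers kanR and hygR, the strain names of the sequenced cultures are not given in the labels, and all cells were grown overnight to exponential phase in the rich medium YES. Poly(A) RNA of each strain was sequenced as 1 library at 24°C and 1 at 30°C, 4 libraries in all. No difference given here thus has a replicate library, and no test was possible.

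Subtelomeres are the stretches of a chromosome next to the telomeric repeats. In fission yeast the part nearest to the telomere is packed into heterochromatin, which carries methylated histone H3 lysine 9 and is read by HP1 proteins such as Swi6, and the part beyond it forms condensed chromatin that depends on the shugoshin Sgo2. Genes in these regions are mostly weakly transcribed in growing cells, many belong to families with copies at several ends, and several are known to respond to stress or to nutrients.

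The values are FPKM, a measure of expression corrected for gene length and sequencing depth. Changes are given as log2((fas S.j. FPKM + 1)/(wild-type FPKM + 1)) at 24°C, a scale that makes changes at low FPKM look smaller than they are. A gene is called beyond the limit when its change exceeds 0.8 in either direction and its mean FPKM over the 24°C libraries is at least 1. The number 0.8 is taken from the methods of the study, where it was applied to Cuffdiff log2 fold changes together with a p-value. Here it is applied to FPKM + 1, without a p-value and with the minimum. The replaced genes matched the labels. At 24°C fas1 had 301 FPKM in wild-type cells and 7.35 in fas S.j. cells, and fas2 had 336 and 0.320. The tables hold no read counts. In genes alone in their locus, low FPKM values multiplied by the gene length less 200 bases fell near whole multiples of 0.075 in wild type (77.8% of 27 genes within 0.1 of a read) and of 0.0945 in fas S.j. (71.4% of 21 genes). Each step was chosen as the best fit to these same genes, so the shares are not an independent check. The approximate read numbers given below come from these steps.

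At 24°C, 80 of the 133 members had a mean FPKM below 1 (60.2%), against 3.89% of all genes. The median FPKM of the members was 0.109 in wild-type cells and 0.526 in fas S.j. cells, where all genes had medians of 39.9 and 40.2. Of the members, 42 were listed at 0 in both libraries, which makes up 42 of the 106 such genes of the table. A further 15 members were listed at 0 in wild type and above 0 in fas S.j., out of 27 such genes in the table. The reverse pattern held for 3 members out of 17 genes. The levels differed with the distance from the end. Within 25 kb of an end, 34 of 36 members had a mean FPKM below 1, and the median was 0 in each library. Between 75 and 100 kb, 7 of 30 members had a mean below 1, and the medians were 6.24 FPKM in wild-type cells and 10.6 in fas S.j. cells. Among the 158 genes of the next 100 kb inward, the medians were 34.5 and 36.7 FPKM, close to those of the whole table.

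**Figure D1:**
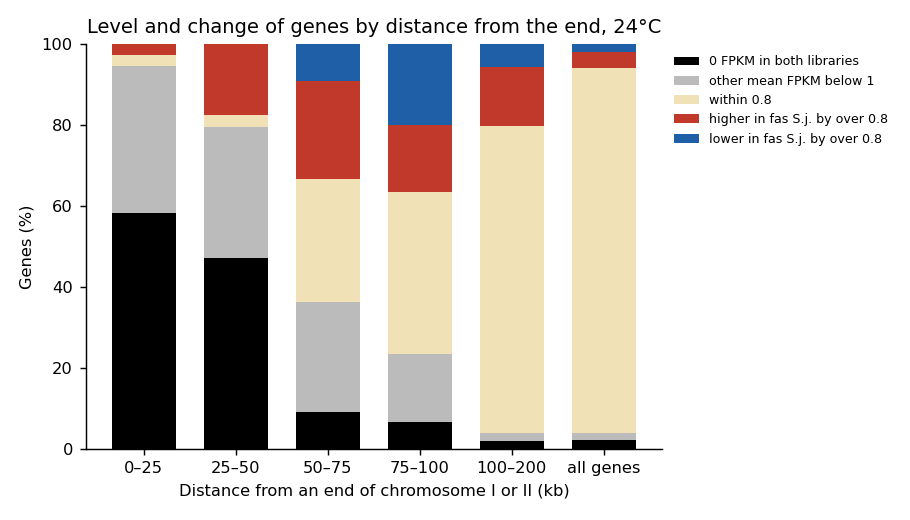
Share of genes (%) by distance of the far edge of their locus from an end of chromosome I or II (kb), and for all genes, divided by level and change at 24°C, 1 library per strain. Genes listed at 0 in both libraries (black) made up 21 of 36 members within 25 kb and 2 of 30 members between 75 and 100 kb.

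The 4 ends share many near-identical genes. With a copy called near-identical when 90% or more of the bases match across 50% or more of the coding sequence, 65 of the 133 members had a copy, 62 of them at another of the 4 ends and 15 at each of the 3 other ends. A further 5 members matched no gene of the reference annotation and were not compared. Distances are counted from the outermost position listed, not from the telomere. The outermost gene at the right end of chromosome I, SPAC750.08c, has a copy, SPAC212.09c, 7.62 kb from the left end of that chromosome. SPBC1348.15, outermost at the left end of chromosome II, has a copy, SPAC212.03, 23.6 kb from the left end of chromosome I. The same distance can therefore be an unlike position at different ends. Of the 42 members at 0 in both libraries, 39 had a copy. A mean FPKM below 1 was found in 57 of the 65 members with a copy and in 23 of the 68 others (33.8%), whose medians were 2.42 FPKM in wild-type cells and 2.67 in fas S.j. cells. Copies were also the more frequent the nearer the end, with 34 of the 36 members within 25 kb and 4 of the 30 between 75 and 100 kb, and their part in the low levels near the ends was not tested. The share of 50-base windows of a coding sequence that occur once in the reference genome (ASM294v3) was 0 for 30 members, and 27 of these were listed at 0 in both libraries. Of the 61 members with at least 99% unique windows, 2 were listed at 0 in both. How reads with several equally good positions were counted is not given in the sources used here, and its part in the zeros was not tested.

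**Figure D2:**
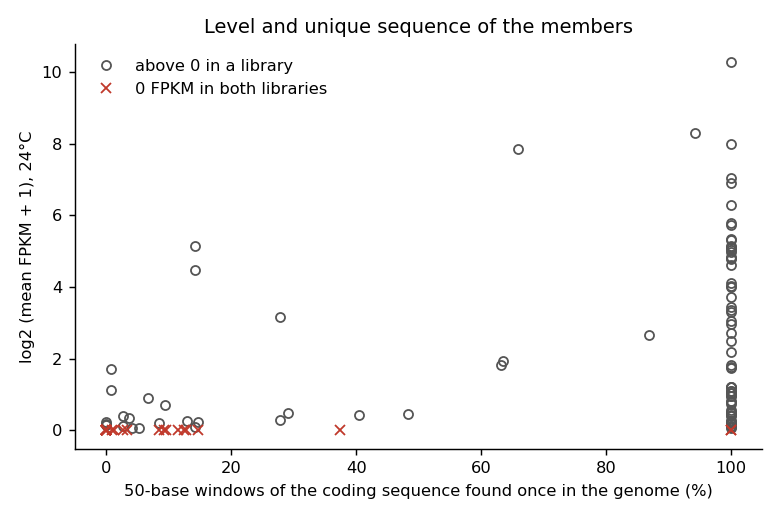
Level of each of the 128 members matched to the reference, as log2 of the mean FPKM at 24°C + 1, against the share (%) of the 50-base windows of its coding sequence found once in the genome. Members listed at 0 in both libraries (crosses) lie mainly at the left, where 27 of the 30 members with no unique window are found.

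The copies are shown here because they decide how firmly a value can be given to a single end. L-asparaginase, which splits asparagine to aspartate and ammonia, has 4 genes among the members, in 2 near-identical pairs across ends. The following stretches of 75 bases are those with the most differences between the copies of a pair, read from RefSeq ASM294v3 in the direction of the gene, with the differing bases in capitals. SPAC186.03 (chrI:5535206-5535280, plus strand) and SPBPB21E7.09 (chrII:76326-76400, plus strand) differ at 15 of 1083 coding bases. SPAC977.12 (chrI:57398-57472, plus strand) and SPBPB8B6.05c (chrII:54587-54661, minus strand) differ at 13 of 1071.
SPAC186.03: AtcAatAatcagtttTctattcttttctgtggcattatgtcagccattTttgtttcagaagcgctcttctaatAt
SPBPB21E7.09: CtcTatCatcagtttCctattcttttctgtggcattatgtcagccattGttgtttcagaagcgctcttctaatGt
SPAC977.12: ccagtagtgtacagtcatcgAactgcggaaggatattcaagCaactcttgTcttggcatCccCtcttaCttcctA
SPBPB8B6.05c: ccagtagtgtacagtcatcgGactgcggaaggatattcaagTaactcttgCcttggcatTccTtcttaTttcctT

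In the first pair, 72.2% of the 50-base windows are the same in both genes, and in the second pair 85.8%. SPBPB21E7.09, at the left end of chromosome II, had 2.37 FPKM in wild-type cells and 13.4 in fas S.j. cells. Its copy SPAC186.03, at the right end of chromosome I, had 0.0639 and 0.404 FPKM, about 1 and 5 reads. Both genes of this pair were higher in fas S.j., and the level of SPBPB21E7.09 was above that of its copy in each library. SPAC977.12 had 34.1 and 34.3 FPKM, and its copy SPBPB8B6.05c had 19.2 and 23.4, changes of 0.01 and 0.27. The fluoride export channel genes fex1 (left end of chromosome I) and fex2 (left end of chromosome II) differ at 1 of 936 coding bases. They had 1.07 and 1.27 FPKM, and 2.40 and 2.14 FPKM, in wild type and fas S.j. With 99.3% of their windows identical, the split of reads between the fex genes rests on few positions. The aldo-keto reductase genes SPAC977.14c and SPAC750.01 are less alike, with 62 differing bases of 978, and 36.9% of their windows are identical. The stretch with the most differences is shown for them as well (chrI:60415-60489, minus strand, and chrI:5555994-5556068, plus strand).
SPAC977.14c: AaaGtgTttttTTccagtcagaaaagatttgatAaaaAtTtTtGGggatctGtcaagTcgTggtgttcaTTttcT
SPAC750.01: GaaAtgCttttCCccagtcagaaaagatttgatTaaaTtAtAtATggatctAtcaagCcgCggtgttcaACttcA

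The tlh genes encode RecQ-type DNA helicases next to the telomeres and are known to be expressed in cells that lose telomerase. Of these, tlh1 at the left end of chromosome I was listed at 0 in both libraries. Its copy tlh2 at the right end of chromosome II is 99.98% identical to it over 5662 aligned bases and had 0.153 FPKM in wild-type cells and 0.483 in fas S.j. cells, about 12 and 30 reads. These values cannot be assigned to the left or the right end. The 8 members annotated as transmembrane helix proteins, among them the ftm genes found at all 4 ends, each had a mean FPKM below 1, and 5 of them were listed at 0 in both libraries.

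Among the 53 members whose mean FPKM was 1 or more, 20 were higher in fas S.j. beyond the limit (37.7%) and 9 were lower (17.0%). Over all genes with this minimum, the shares were 4.19% and 2.08% (207 and 103 of 4943). The median change of the 53 members was 0.39, against 0.00 over all genes, and 35 of the 53 were higher in fas S.j. The minimum lets in genes that are above 1 FPKM in a single library, and 9 members passed through fas S.j. alone and 2 through wild type alone. Of the 42 members with at least 1 FPKM in each library, 12 were higher and 7 lower beyond the limit, where the shares over all such genes were 3.76% and 1.86%. With no minimum, 26 of the 133 members were higher by more than 0.8 and 9 were lower, against 4.28% and 2.06% of all genes. The 6 members added in this way include the protein repair methyltransferase gene pcm2, with 0.0644 FPKM in wild-type cells and 1.38 in fas S.j. cells, about 1 and 17 reads, and SPBPB10D8.03, with about 2 and 20 reads. A further 4 of the 6 (SPAC212.08c, SPAC186.08c, fah1 and SPBPB21E7.02c) were listed at 0 in wild type and at 0.750, 0.840, 0.863 and 1.31 FPKM in fas S.j.

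The ends differed in direction. The median change at 24°C was 0.07 at the left end of chromosome I, 1.38 at its right end, 1.46 for chromosome II on the left and -0.40 on the right. Higher and lower members beyond the limit numbered 1 and 2 of 11, 10 and 1 of 15, 7 and 0 of 11, and 2 and 6 of 16, in the same order. At the right end of chromosome I, 5 of the 15 members passed the minimum through fas S.j. alone. With at least 1 FPKM in each library, the numbers were 1 and 2 of 11, 5 and 0 of 9, 6 and 0 of 10, and 0 and 5 of 12. For the genes between 100 and 200 kb from the same ends, the medians were 0.26, 0.02, 0.27 and 0.00. Of these adjoining genes, 23 of 152 were higher beyond the limit (15.1%) and 9 were lower (5.92%), shares that were also above those of all genes. Next to the left end of chromosome I, 12 of 46 were higher. With 1 library per strain, the differences between ends were not tested.

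**Figure D3:**
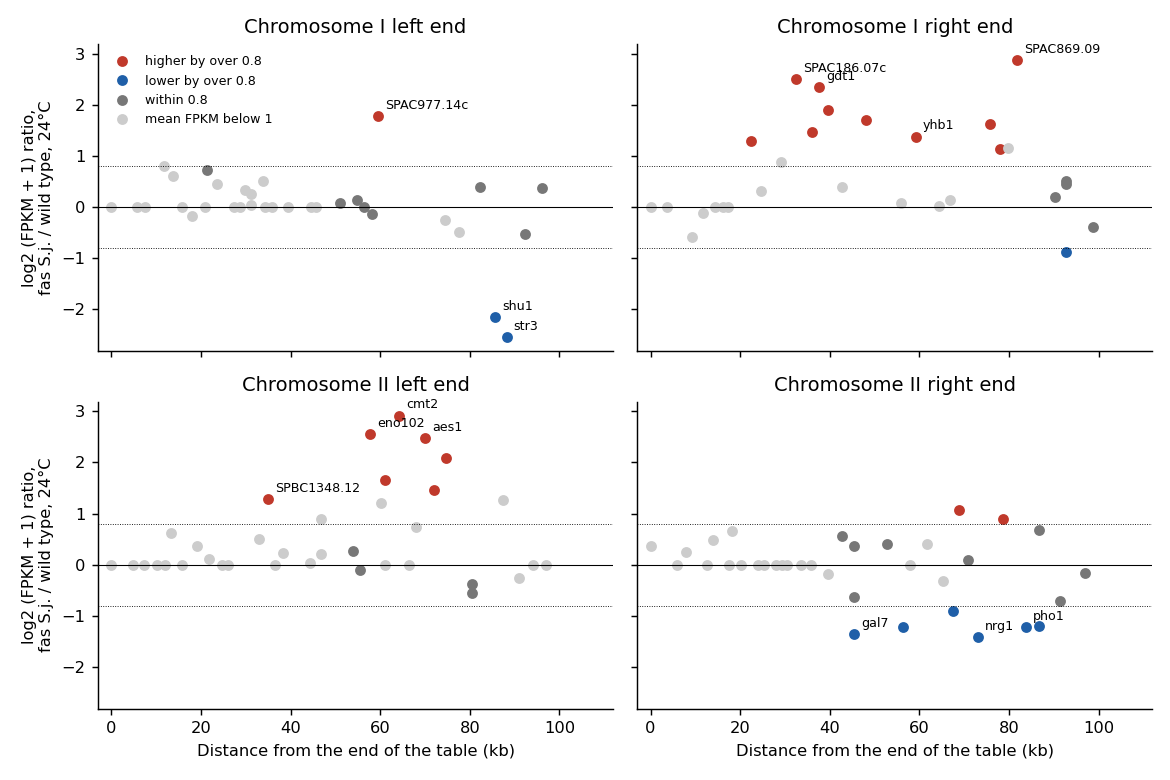
Change of each member at 24°C, as log2((fas S.j. FPKM + 1)/(wild-type FPKM + 1)), against the distance of the near edge of its locus from the end of the chromosome in the table (kb), 1 panel per end. The dotted lines mark 0.8 in each direction. Members higher in fas S.j. beyond the limit fill the right end of chromosome I (10) and the left end of chromosome II (7), and those lower lie mainly at the right end of chromosome II (6).

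On the right of chromosome I, most members were higher in fas S.j. The 18 members from atd2 to SPAC750.01, between 22.4 and 92.3 kb from the end (chrI:5486848-5556768), were listed with a higher FPKM in fas S.j. This stretch was picked for its common direction. With no minimum, 12 of the 18 were higher by more than 0.8. The share over all genes was 4.28%, but those were not picked by direction, so the shares are not alike. Of the 18, 11 had a mean of at least 1 FPKM, and pcm2 and SPAC186.08c among the 12 did not. SPAC869.09, mel1, hry1, SPAC186.02c and SPAC186.07c among the 12 had less than 1 FPKM in wild type and reached that mean through fas S.j. alone. Some of the 6 members of the stretch that changed less rest on single reads. SPAC869.03c had about 1 read in each library, and SPAC869.04 and SPAC869.01 each had about 1 and 2. The left-out genes cat1, put4, sul2 and pfl9 lie among the 18, and put4 and sul2 were lower in fas S.j., with changes of -1.68 and -2.59. In this stretch the gene gdt1, annotated as a GDT1-like protein, had 12.1 FPKM in wild-type cells and 66.1 in fas S.j. cells, a change of 2.35. The adjoining SPAC186.04c, an uncharacterised gene 39.6 kb from the end, went from 2.52 to 12.2 FPKM. The isomerase gene SPAC186.06 had 6.03 FPKM in wild-type cells and 18.4 in fas S.j. cells, 3.06 times the wild-type level. These 3 genes are neighbours, each with a unique coding sequence and alone in its locus.

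The hydroxyacid dehydrogenase genes SPAC186.07c and SPAC186.02c lie on either side of them. SPAC186.07c had 0.377 FPKM in wild-type cells and 6.79 in fas S.j. cells, about 4 and 57 reads, and a change of 2.50. SPAC186.02c was listed at 0 in wild type and had 2.25 FPKM in fas S.j., about 26 reads, and no fold is given for it. The aldo-keto reductase gene SPAC750.01, the member beyond the limit nearest to this end at 22.4 kb, had 1.06 and 4.01 FPKM. Between SPAC750.01 and the outermost position listed for this end, 7 members remained, 5 of them listed at 0 in both libraries, and none was higher in fas S.j. The nitric oxide dioxygenase gene yhb1, whose product detoxifies nitric oxide, had 28.3 FPKM in wild-type cells and 75.1 in fas S.j. cells, a change of 1.38. It was the member with the highest FPKM among those beyond the limit at this end. Further from the end, SPAC869.09, which encodes a Con-6 family protein, had 0.568 and 10.5 FPKM, a change of 2.88. The gene hry1 of the same stretch, which encodes a cation-binding HHE domain protein, had 0.143 FPKM in wild-type cells and 2.53 in fas S.j. cells. For mel1, which encodes melibiase, an enzyme that releases galactose from melibiose, the values were 0.295 and 1.86 FPKM, about 5 and 25 reads. These 3 genes were nearly silent in wild type, so their changes rest on few reads in that library.

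Further inward the changes were smaller. The uncharacterised gene SPAC922.04, 98.6 kb from the end, had the highest FPKM of all members, 1393 in wild-type cells and 1068 in fas S.j. cells, a change of -0.38. The aldehyde dehydrogenase gene atd2, the innermost of the 18, had 21.8 and 25.1 FPKM, within the limit. SPAC922.05c, SPAC922.06 and SPAC922.09 share a locus, where reads can be divided between genes. The first and second had changes of 0.45 and 0.52, and the third, the member lower beyond the limit at this end, had 1.97 FPKM in wild-type cells and 0.622 in fas S.j. cells.

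At the left end of chromosome II, the members beyond the limit were all higher in fas S.j. and 6 of the 7 lay between 57.8 and 77.3 kb from the end. The catechol O-methyltransferase gene cmt2 had 5.71 FPKM in wild-type cells and 49.7 in fas S.j. cells, 8.70 times the wild-type level and a change of 2.92. For eno102, which encodes an enolase, the glycolytic enzyme that forms phosphoenolpyruvate, the values were 6.99 and 45.7 FPKM. The gene aes1, annotated as a phenazine biosynthesis family protein, had 39.0 FPKM in wild-type cells and 223 in fas S.j. cells, the highest level at this end. These 3 genes have unique coding sequences and are alone in their loci, with about 71, 128 and 359 reads in wild type. Next to aes1, SPBPB21E7.08 had 17.8 and 50.8 FPKM, a change of 1.46, and the L-asparaginase gene SPBPB21E7.09, whose copy is shown above, had a change of 2.09. SPBPB21E7.11, in a locus of 2 genes, had 0.130 FPKM in wild-type cells and 2.54 in fas S.j. cells.

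Nearer to this end, the transcription factor gene SPBC1348.12 stood alone, 34.9 kb from the end, with 4.72 FPKM in wild-type cells and 12.9 in fas S.j. cells, a change of 1.28. Its neighbours on either side, SPBC1348.11 and SPBC1348.13, had means below 1 FPKM. Further inward lay a locus whose members were lower. SPBPB10D8.01, annotated as a cysteine transporter, had 40.6 FPKM in wild-type cells and 27.4 in fas S.j. cells, and the arylsulfatase gene SPBPB10D8.02c in the same locus had 36.1 and 27.7. Both were lower in fas S.j. by less than the limit. The next members inward had means below 1 FPKM. SPBPB10D8.03 was higher, with 0.136 and 1.72 FPKM, and SPBPB10D8.04c was lower, with 0.290 and 0.0734. Of the adjoining genes between 100 and 200 kb from this end, 6 of 30 were higher beyond the limit and 0 were lower.

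At the left end of chromosome I, the members split between a higher gene and a lower pair. The aldo-keto reductase gene SPAC977.14c, 59.5 kb from the end, had 103 FPKM in wild-type cells and 354 in fas S.j. cells, a change of 1.78. Its diverged copy SPAC750.01 at the right end of the same chromosome was also higher, with a change of 1.28. The left-out neighbours SPAC977.15 and dak2 had changes of 4.01 and 0.87. The genes str3 and shu1 serve iron supply, str3 as a transporter of iron-bound siderophores and shu1 in the uptake of heme, and in S. pombe both are repressed when iron is plentiful. The FPKM of str3 was 205 in wild-type cells and 34.2 in fas S.j. cells, a change of -2.55. For shu1 it was 11.8 and 1.89, a change of -2.15. They lie next to each other, 88.2 and 85.6 kb from the end, and were the members with the largest decrease on this scale at any of the 4 ends. Their levels at 30°C are given below.

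The other members of this end that reached a mean of 1 FPKM were within the limit. The sodium/proton antiporter gene nhe1 had 32.0 FPKM in wild-type cells and 33.7 in fas S.j. cells. The gluconate transporter gene ght3 had 4.53 and 6.24, the spore-wall protein gene isp3 had 7.96 and 10.6, and the hydrolase gene hhy1 had 31.9 and 21.9. Nearest to the end among them, SPAC212.04c, 21.4 kb from it, had 1.90 FPKM in wild-type cells and 3.80 in fas S.j. cells, a change of 0.73.

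On the right of chromosome II, the phosphate genes pho84 and pho1 and the galactose gene gal7 were lower in fas S.j. The inorganic phosphate transporter gene pho84 and the extracellular acid phosphatase gene pho1 are induced when phosphate is scarce, under control of the transcription factor Pho7. For pho84, in a locus of 2 genes, the FPKM was 436 in wild-type cells and 188 in fas S.j. cells, a change of -1.21. The adjacent pho1 had 356 and 152 FPKM, a change of -1.22. The paper names pho1 among known targets of the unfolded protein response, in which Ire1 of the endoplasmic reticulum governs mRNA decay. By RT-qPCR with biological repeats, it reports lower mRNA of such targets, pho1 among them, in fas S.j. cells. The other gene of the pho84 locus, SPBC8E4.02c, which had no match in the annotation, had 23.8 and 38.5 FPKM. The genes gal7, gal10 and gal1 encode the enzymes that convert galactose for glycolysis. FPKM of gal7, in a locus of 3 genes with gal10 and tgd1, was 44.3 in wild-type cells and 16.7 in fas S.j. cells, a change of -1.36. In the same locus gal10 had 3.31 and 1.77 FPKM and tgd1, annotated as a nucleotide-sugar dehydratase, 0.814 and 1.33. The gene gal1, alone in its locus, had 13.0 and 19.6 FPKM, so that gal1 was higher and gal7 and gal10 were lower, gal1 and gal10 by less than the limit.

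The amino acid permease gene nrg1 had 3.83 FPKM in wild-type cells and 0.807 in fas S.j. cells, about 101 and 17 reads. The uncharacterised SPBPB2B2.08 had 14.3 and 5.52, and SPBPB2B2.04, without a match in the annotation, had 44.4 and 23.4. Among these lower genes lay both members of this end that were higher beyond the limit, fub2, which encodes a protein of the PI31 proteasome regulator family, with 0.496 and 1.78 FPKM, and SPBPB2B2.03c, with 0.8 and 2.80. Both had few reads in wild type, about 6 and 13. The agmatinase gene SPBC8E4.03, with 81.3 and 72.4 FPKM, and pan5, a gene of pantothenate synthesis with 46.8 and 62.3 FPKM, were within the limit. Nearer to the end than gal1, no member had a mean FPKM of 1 or more.

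**Figure D4:**
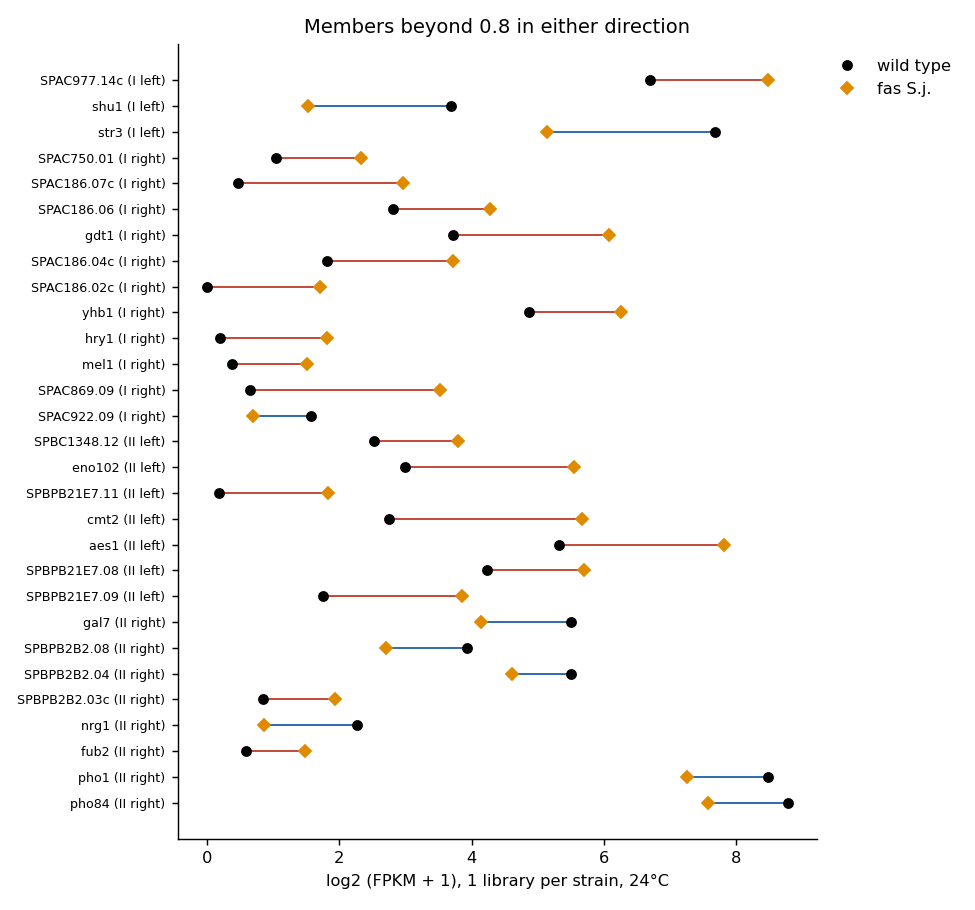
Level of the 29 members beyond 0.8 in either direction, as log2 of FPKM + 1 at 24°C, in wild type (circles) and fas S.j. (diamonds), 1 library each, ordered by end and by distance from it. Lines are red where fas S.j. was higher (20 members) and blue where it was lower (9 members).

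The members were also counted by kind of product, in groups refined after the values were seen. The group called metabolic enzymes took every product that matched the words of no other group. It includes pcm2, whereas aes1, SPBPB21E7.02c, gdt1 and shu1 fell among the other products. Of its 39 members, 23 had a mean of at least 1 FPKM, of which 10 were higher beyond the limit and 1, gal7, was lower, with a median change of 0.52. Of these 10, mel1, SPAC186.02c and SPAC186.07c had less than 1 FPKM in wild type. Of 18 members annotated as transporters, 9 had a mean of at least 1 FPKM, 0 were higher beyond the limit and 3 were lower, namely str3, pho84 and nrg1, with a median of -0.11. The left-out transporter genes sul2, put4 and cat1 were not counted here, and cat1 was higher beyond the limit, with a change of 0.84. Nor were shu1, which serves heme uptake (change -2.15), and gdt1 (change 2.35), whose product names matched no transporter word. The transporter counts thus depend on the wording of the annotation. The group of other or uncharacterised products had 9 higher and 4 lower among 19, and a median of 0.73. With the same minimum, 37.7% of all 53 members were higher beyond the limit and 17.0% lower, and over all genes 4.19% and 2.08%. No share over all genes of these kinds was computed, and the difference between the kinds was not tested.

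Medians were taken over windows of 10 consecutive genes with a mean of at least 1 FPKM along all 3 chromosomes, with the left-out genes included. Of the 4916 windows, the highest median, 1.66, was found in windows between put4 and SPAC750.01 at the right end of chromosome I, in which up to 9 of the 10 genes were higher beyond the limit. The next highest, 1.55, was found in windows between SPBC1348.12 and aat1, at and beyond the left end of chromosome II. Of the 15 windows with a median above 0.8, 1 held no gene of the 100 kb spans. The lowest median, -0.81, was that of the window from ecl3 to SPBPB2B2.08 at the right end of chromosome II, and the lowest outside the spans was -0.61. In the window from SPAC869.09 to SPAC186.06, 5 of the 9 higher genes (SPAC869.09, mel1, hry1, pfl9 and SPAC186.02c) had less than 1 FPKM in wild type and passed the minimum through fas S.j. alone, so the order of the windows depends in part on the change itself. Neighbouring windows share most of their genes and are not independent.

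Genes that set subtelomeric chromatin were examined from a list of 51 genes, all of them measured and none of them a member. The list comprises shelterin and telomerase, H3K9 methylation and HP1, the SHREC and other histone deacetylases, RNA interference, knob and boundary factors, and HIRA with other histone chaperones. Their median change was -0.07. None was higher beyond the limit and 1 was lower, where the shares over all genes with the minimum were 4.19% and 2.08%. The lower gene, stc1, links RNA interference to the H3K9 methyltransferase complex and shares its locus with 1 other gene. It had 6.24 FPKM in wild-type cells and 1.09 in fas S.j. cells. The other 50 lay between -0.60 and 0.59. None of the 51 is in the 30°C table.

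Short upstream sequences were compared because neighbouring members had changes in the same direction. The windows were the 300 bases before the annotated gene start in 5105 genes of ASM294v3. The letters TGACGT, the site bound by the stress factor pair Atf1-Pcr1, were searched on both strands. They were found before 6.07% of all genes, 8.66% of 127 members, 11.8% of all genes higher beyond the limit and 5 of 19 members higher beyond it. Among the lower members with such a window, 1 of 8 had a match, pho84. The 5 of the higher members are shown as 30 bases in the direction of the gene, with the match in capitals (ACGTCA where it lies on the opposite strand). Of these, 4 lie at the right end of chromosome I. SPAC869.09, SPAC186.02c and SPAC186.07c had less than 1 FPKM in wild type and passed the minimum through fas S.j. alone. The difference between the shares was not tested.
SPAC977.14c, chrI:60871-60900, minus strand: tcagcaaacttgTGACGTttaacaagctat
SPAC869.09, chrI:5497578-5497607, minus strand: agcatgtagagaACGTCAaatcgcaatcga
SPAC186.02c, chrI:5531149-5531178, minus strand: attacataccgtTGACGTattaaaaatatt
SPAC186.06, chrI:5541813-5541842, plus strand: attatgaacatgTGACGTataatgatacgc
SPAC186.07c, chrI:5546804-5546833, minus strand: tgcaacattcatTGACGTacaaaacgaacg

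Matches to the Pho7 motif were present before 2.15% of all genes and 9.45% of the 127 members (12). Near-identical copies were counted separately, so a copied upstream sequence may count more than once. Among genes beyond the limit, 5.94% of all lower genes and 1.96% of all higher genes had a match, and so did 1 of 8 lower members, pho1. Before pho1 there were 2 matches, shown here because pho1 and its neighbour pho84 had like changes, and none in the same window before pho84. The higher member SPAC186.04c also had a match, 1 of 19. A match is a description of the sequence, and a missing match says only that the letters are not in this window.
pho1, chrII:4447310-4447339, plus strand: ggggaatagTCGCTGCTTGAAacatccgga
pho1, chrII:4447342-4447371, plus strand: tagttttatTCGGAAATTAAAaacaagttt

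The 30°C table that was analysed holds 285 genes, each with a lower FPKM in fas S.j., so higher genes at 30°C were not analysed here. It lists 19 of the 133 members (14.3%), against 5.54% of all genes. By end these were 6 at the left end of chromosome I, 3 at its right end, 0 at the left end of chromosome II and 10 at its right end. Of the 9 members lower beyond the limit at 24°C, 8 are in this table, and of the 20 higher members, 0 are. Over all genes of the 24°C table, 57 of the 103 lower beyond the limit (55.3%) and 4 of the 207 higher (1.93%) are in it. The FPKM values of the temperatures were normalized separately, so the changes are set side by side without a test.

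At 30°C str3 had 10.6 FPKM in wild-type cells and 1.28 in fas S.j. cells, a change of -2.35 beside -2.55 at 24°C. Its wild-type level at 24°C was 205 FPKM, which cannot be compared directly across the tables. For shu1 the values at 30°C were 0.739 and 0.202 FPKM, a change of -0.53. The phosphate genes were lower at both temperatures, with 239 and 70.7 FPKM for pho84 at 30°C, a change of -1.74, and 138 and 73.9 FPKM for pho1, a change of -0.89. For gal7 the changes were -1.36 at 24°C and -1.29 at 30°C, with 43.0 and 17.0 FPKM at 30°C. The permease gene nrg1 had 1.79 and 0.503 FPKM at 30°C, a change of -0.89. For SPBPB2B2.04 they were 28.7 and 14.1, a change of -0.97, and for gal10 4.004 and 1.68, a change of -0.90. These genes were lower at both temperatures. The gene ecl3, of a family known to extend chronological lifespan, had 48.2 and 29.03 FPKM at 24°C and 54.7 and 32.4 at 30°C, changes of -0.71 and -0.74. SPAC922.04 had 1554 and 1075 FPKM at 30°C, and SPAC922.09 had 6.03 and 3.66, changes of -0.53 and -0.59. SPBPB2B2.05, annotated as a glutamine amidotransferase family protein, had 2.51 FPKM in wild-type cells and 0.499 in fas S.j. cells at 30°C, and 1.17 and 0.742 at 24°C. The remaining listed members below the minimum were near 0. SPAPJ695.02 had 0.252 and 0.0454 FPKM at 24°C and 0.587 and 0.107 at 30°C. For ftm4, which has near-identical copies, the values were 0.0806 and 0 at 24°C, and 0.219 and 0.120 at 30°C. The phosphoprotein phosphatase gene SPBPB2B2.06c had 0.1497 and 0.520 FPKM at 24°C, and 0.560 and 0.111 at 30°C. In all, 14 of the 19 were lower at both temperatures and 5 (nhe1, fex1, isp3, tgd1 and SPBPB2B2.06c) were higher at 24°C and lower at 30°C.

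**Figure D5:**
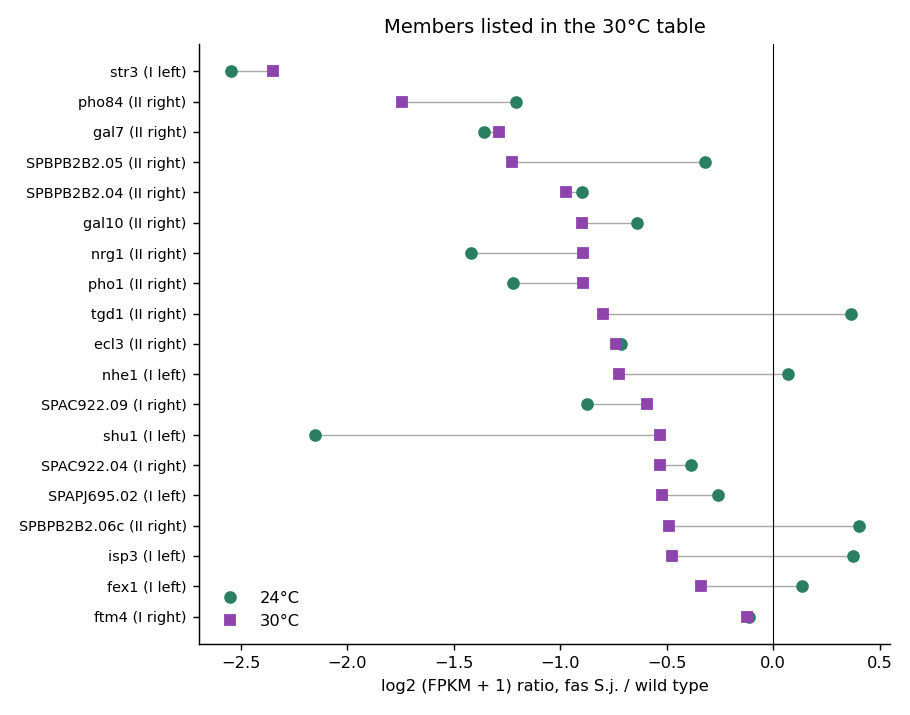
Change of the 19 members listed in the 30°C table, as log2((fas S.j. FPKM + 1)/(wild-type FPKM + 1)), at 24°C (circles) and 30°C (squares), 1 library per strain and temperature. The 30°C table holds lower genes, so every square lies to the left of 0, and 14 of the 19 circles do as well.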

How the data were processed

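Poly(A) libraries of wild type and fas S.j. at 24°C and 30°C were sequenced, 1 per strain and temperature. Per the labels and methods, TopHat placed the reads and Cuffdiff, on a Galaxy server, gave the FPKM values that the authors deposited in 2 tables. Versions, library scaling and the genome build are not given in the sources used here. The tables also hold the authors' fold changes, test statistics, p-values and q-values, and a set of 3 unnamed columns stands in the one for 30°C; none of these was used. The values of each temperature were treated by themselves.

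Loci were read from the 24°C table. Of its 5143 gene identifiers, 5106 matched the RefSeq annotation of ASM294v3, including 128 members, and each matched gene overlapped its listed locus. Names, products, coding sequences and promoters come from it. For changes the pseudocount was 1, the limit 0.8 and the lowest mean FPKM admitted 1. Near-identical copies were found with blastn 2.17.0. Product groups were assigned by words of the annotation, with metabolic enzymes as the remainder, and refined after the values were seen. Python 3.11.15, numpy 2.4.6, pandas 2.3.3, Biopython 1.88 and matplotlib 3.10.9 were used. The code for the calls was run on simulated data made from genes well above the minimum. That run does not cover the calls at low FPKM. With 1 library per condition, no test and no error could be computed. The members, lists and limits were chosen with earlier results of these data known. By the naming rule, any member whose mean FPKM reached 1 could be named, with values for those beyond the limit, the one with the highest FPKM at each end and those in the 30°C table. Copies, silent genes and members added by dropping the minimum were named after their values were seen, and so were other members within the limit whose values are given, such as ght3, hhy1, atd2, gal1 and pan5, which go beyond the rule. Alternatives changed the pseudocount, the minimum, the centring, the limit, the span and the genes included.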

Additional observations from a re-analysis of the deposited data

Results flagged for a closer look

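For 4 members with a mean of at least 1 FPKM at both temperatures, fas S.j. was higher than wild type at 24°C and lower at 30°C, with 1 library each. The difference between the temperatures was not tested, and each of these genes is in the 30°C table because it was lower there. For tgd1 the change at 24°C was above that at 30°C by 1.16, from 0.814 (wild type) and 1.33 FPKM (fas S.j.) at the lower temperature, and 3.93 and 1.83 at the higher, in a locus of 3 genes. For isp3 the difference was 0.85, with 7.96 and 10.6 FPKM at 24°C and 5.41 and 3.61 at 30°C. For nhe1 it was 0.79, with 32.0 and 33.7 FPKM at 24°C and 47.2 and 28.2 at 30°C. For fex1, whose coding sequence differs from that of fex2 at 1 base, it was 0.48, with 1.07 and 1.27 FPKM at 24°C and 2.40 and 1.69 at 30°C.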

How the results depend on the processing

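No paired analysis was possible because each condition has 1 library, and no replicate could be left out. Against 20 higher and 9 lower of 53 members beyond the limit, a minimum mean FPKM of 10 left 8 and 5 of 28 members. No share over all genes was computed at that minimum. The span of 50 kb left 7 and 0 among 9 members, a count too small to compare. Requiring 1 FPKM in each library, chosen after seeing the data, left 12 higher and 7 lower of 42 members. The median change of all members went from 0.39 to 0.00 with no minimum and to 1.47 within 50 kb. At the right end of chromosome I the median of 1.38 became 1.83 with a pseudocount of 0.1, 0.52 with a minimum of 10, 0.40 with no minimum and 1.80 within 50 kb. At the left end of chromosome II the median of 1.46 became 0.07 with no minimum and 1.78 for genes alone in their locus. For the right end of chromosome II, -0.40 became -0.71 with a minimum of 10, -0.68 with 1 FPKM in each library, 0.00 with no minimum and 0.56 within 50 kb, where 1 gene, gal1, remained. At the left end of chromosome I the median was 0.73 within 50 kb, again from 1 gene. With no minimum, the 42 members listed at 0 in both libraries enter as changes of 0, and the cause of the moved medians was not tested. Leaving out members with a near-identical coding copy, or adding the 8 left-out genes, both chosen after seeing the data, kept the counts within 1.5 times and each median within 0.25, although without copies the median at the left end of chromosome I was -0.13 in place of 0.07. Copies by protein sequence were not run. Of 36 named members, 15 moved by more than 0.25 with a pseudocount of 0.1, each further from 0.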
